A study of Mus musculus with 4 samples.

Results

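The genes described here are 10 genes of the kidney tubule, read on Affymetrix Mouse Genome 430 2.0 arrays of mouse ureter. They are 9 genes that the proximal tubule expresses (Slc34a1, Slc5a2, Slc22a6, Lrp2, Cubn, Miox, Slc27a2, Kap and Hnf4a) and Havcr1, a marker of tubule injury. The platform annotation assigns 20 of the 45101 probe sets to 1 of these genes alone, and 18193 genes in all have such a probe set. They were chosen by their known function and selected on their signals in these same tumor and normal arrays, so their values are given as a description and no test is drawn from them.

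There were 2 samples of normal ureter and 2 of ureter tumor, with 1 array each, from mice on a C57Bl/6 background aged 6 to 8 weeks. The labels describe the isolated tissue as ureter epithelium. The same treatment text stands on every sample: doxycycline from the age of 3 weeks for 1 week, given so that a tetracycline-controlled Cre (teto-Cre, switched on by R26rtTA) recombines conditional alleles of Ncstn (Ncstnf/f) throughout the tissues in which the Rosa26 locus drives rtTA, which are many. Ncstn codes for nicastrin, part of the protease (gamma-secretase) that releases the active part of Notch receptors, and the study asks what Notch signaling does in cancer of the urothelium. The sources used here give neither the genotype nor the sex of the animal behind each array, nor whether animals were pooled. The 2 Ncstn probe sets read 99 and 84.8 on normal replicate 1, 66.2 and 89.6 on normal replicate 2, 81.6 and 66.3 on tumor replicate 1, and 131 and 46.2 on tumor replicate 2. Which exons are deleted is unknown here, so these values check neither the deletion nor the labels.

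The proximal tubule is the first segment of the nephron after the glomerulus. Its cells take back most of the filtered glucose, phosphate, amino acids and protein through transporters and endocytic receptors on a brush border, secrete organic anions, and burn fatty acids for energy. Transcription factors of the HNF1 and HNF4 families keep this program running. The healthy tubule makes little Havcr1 (kidney injury molecule 1), a membrane protein that damaged proximal tubule cells put on their surface, where it binds dying cells. The ureter carries urine away from the kidney and is lined by urothelium, not by tubule epithelium.

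Values are signal intensities made with MAS5 and scaled to a common level on each array. A signal is relative to its own probe set, so levels are compared between arrays and never between genes. Where 4 signals follow each other, they are those of normal replicates 1 and 2 and then of tumor replicates 1 and 2. The 3' to 5' signal ratio, used as a sign of RNA integrity, was 0.92, 0.923, 1.51 and 1.44 for Gapdh and 2.90, 2.82, 2.47 and 2.63 for Actb, so the tumor arrays were higher by one control gene and lower by the other. Its part in the results was not tested.

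The promoters of several of these genes share a short sequence. RefSeq (GRCm38.p6) windows from 250 bases before to 50 bases after the start of transcription were at hand for 9 of the 10 genes, in 12 windows. The half-site of HNF1 factors, GTTAAT, or its reverse complement ATTAAC, stood in 5 of the 12 windows, of Slc34a1, Slc22a6, Miox, Hnf4a and Havcr1, and in 7.1% of all 32851 windows. The windows of Lrp2, Cubn, Slc27a2 and Kap, whose signals moved across the arrays like those of the matching proximal tubule genes, held no match. Havcr1, whose signals did not, held one, so the matches do not follow the array pattern. The 150 bases before the start are shown for the 4 proximal tubule genes with a match, each match in capitals.
Slc34a1, chr13:55399498-55399647, plus strand: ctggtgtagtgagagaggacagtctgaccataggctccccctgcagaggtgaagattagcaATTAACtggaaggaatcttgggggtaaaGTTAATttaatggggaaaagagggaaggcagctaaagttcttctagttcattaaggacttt
Slc22a6, chr19:8617846-8617995, plus strand: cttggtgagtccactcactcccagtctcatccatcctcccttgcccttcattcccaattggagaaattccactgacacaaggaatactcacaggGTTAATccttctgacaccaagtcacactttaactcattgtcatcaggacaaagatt
Miox, chr15:89334323-89334472, plus strand: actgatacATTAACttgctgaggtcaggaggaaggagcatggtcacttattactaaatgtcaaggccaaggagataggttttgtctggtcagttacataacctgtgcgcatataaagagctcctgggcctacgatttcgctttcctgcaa
Hnf4a, chr2:163547005-163547154, plus strand: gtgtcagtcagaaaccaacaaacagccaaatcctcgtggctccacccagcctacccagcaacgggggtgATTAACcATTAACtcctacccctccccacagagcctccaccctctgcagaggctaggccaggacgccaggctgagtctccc

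Slc34a1 held matches whose first bases lay 89 and 61 bases before the start, Slc22a6 1 match at 56, Miox 1 at 142, and the downstream one of the Hnf4a starts listed by RefSeq 2 matches, at 81 and 74 and separated by a single base. Of 13 spellings searched on both strands, GTTAAT was singled out after the matches were seen. Longer HNF1 spellings that contain it (GTTAAT and, after any single base, ATTAAC or ATT, or, after any pair of bases, TTAAC) had 0 matches in the 12 windows, as had the HNF4 spelling CAAAGTCCA and the AP-1 spelling TGACTCA. Of all windows these 5 matched 0.00913%, 0.399%, 0.0396%, 0.475% and 5.2%. The HNF4 spellings CAAAGTC and CAAAGTCC, which lie within CAAAGTCCA, both matched once and at the same place, over the start of Slc34a1, and CAAAGTNCA matched once, in Lrp2, beside 4.44%, 1.42% and 1.41% of all windows. CAAAGG matched 3 windows and AGTCCA 5, against 20.3% and 14.1% of all windows. The androgen receptor half-site TGTTCT matched 1, in Slc34a1, and the STAT spelling TTCNNNGAA 1, in Cubn, against 19.0% and 8.3%. A match is a stretch of letters and does not show that a factor binds there.

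All 9 proximal tubule genes had the same order of arrays in the probe set used for each gene: the lowest level on tumor replicate 1, a middle level on both normal arrays and the highest level on tumor replicate 2. Tumor replicate 2 exceeded the normal mean by 1.79 to 12.9 times, and tumor replicate 1 differed from the normal mean by -2.24 to -7.83 on the log2(signal + 16) scale, on which its signals near the bottom have no reliable size. Havcr1 differed from the other 9 genes in that tumor replicate 1 also lay above both normal arrays. The tumor arrays therefore stand on opposite sides of the normal arrays for 9 of the 10 genes, and a mean of the tumor group describes neither of them. The limma fit over all genes gave differences of -3.42 to 0.68 (log2 scale) for the 9 genes with standard errors of 1.68 to 3.12, and 4.64 with a standard error of 1.87 for Havcr1 (n = 2 per group).

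**Figure D1:**
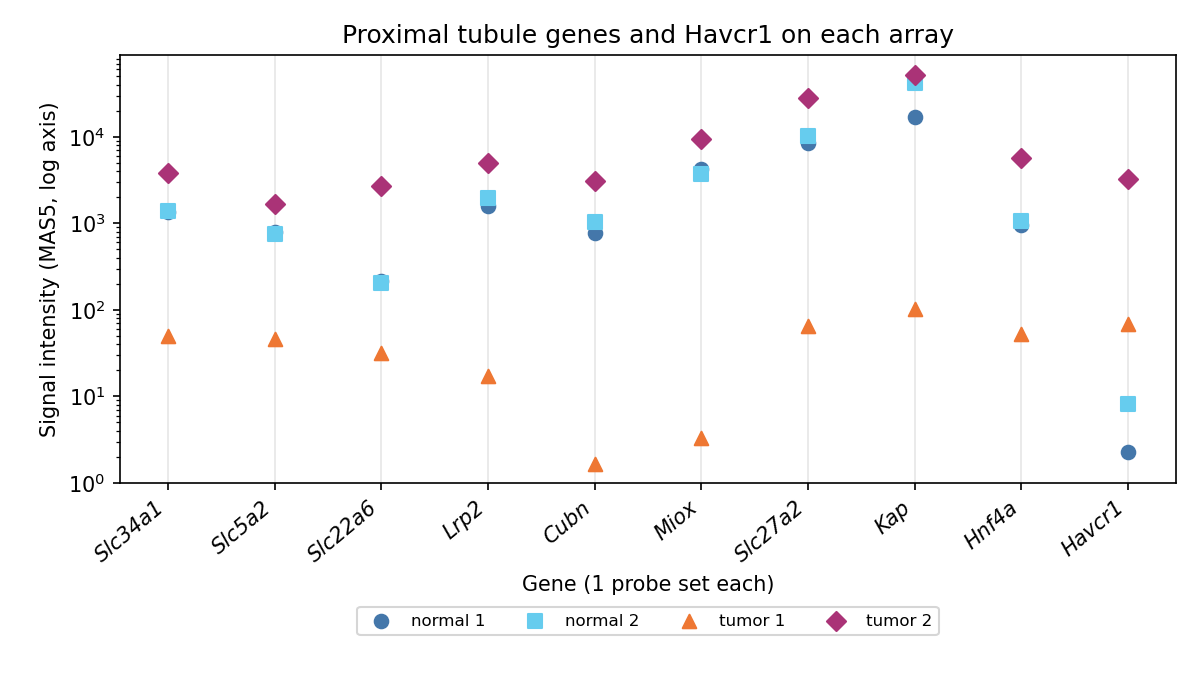
Signal intensity (log axis) of the probe set used for each of the 10 genes on each of the 4 arrays, with 1 point per array. Tumor replicate 1 is the lowest array for 9 genes and tumor replicate 2 the highest for all 10, and signals are not comparable between genes.

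Slc34a1 encodes NaPi-IIa, the main phosphate transporter of the brush border. Its signal (probe set 1423279_at) was 1357 and 1397 on normal replicates 1 and 2, 49.4 on tumor replicate 1 and 3851 on tumor replicate 2. The normal arrays were nearly equal, and each tumor array lay far outside them in its own direction. On the log2(signal + 16) scale, tumor replicate 1 differed from the normal mean by -4.41 and tumor replicate 2 by 1.47, where the normal arrays differed from each other by 0.04.

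Slc5a2 encodes SGLT2, which takes up most of the filtered glucose. It read 790.4 and 759 on the normal arrays, 46.2 on tumor replicate 1 and 1677 on tumor replicate 2 (1455005_s_at). Its second probe set, 1419166_at, had the same order at 178, 139.7, 11.2 and 286.

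Slc22a6 encodes OAT1, the transporter through which tubule cells draw organic anions and many drugs from the blood. It read 217 and 203 on the normal arrays, 32 on tumor replicate 1 and 2705 on tumor replicate 2 (1417072_at). The excess of tumor replicate 2 over the normal mean, 12.9 times, was the largest of the 9 genes, and the second probe set, 1438332_at, gave 10.1 times. Next came Hnf4a at 5.66 times, and the other 7 genes lay between 1.79 and 3.4 times by the probe sets used in the fit. Within these 7 the order changed with the probe set, since Lrp2 gave 2.8 times by one probe set and 3.7 by another.

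Lrp2 and Cubn encode megalin and cubilin, the paired endocytic receptors that retrieve filtered protein and vitamins. Lrp2 read 1565 and 1982 on the normal arrays, 17.3 on tumor replicate 1 and 4972 on tumor replicate 2 (1427133_s_at). Cubn read 776 and 1027 on the normal arrays, 1.67 on tumor replicate 1 and 3067 on tumor replicate 2 (1452270_s_at). For both receptors tumor replicate 1 was near the bottom of the scale while tumor replicate 2 was about as far above the normal arrays as for Slc34a1, at 2.8 and 3.4 times their mean. The Lrp2 probe set 1445901_at did not share this order: it read 70.4, 89.2, 49.3 and 79.6, so tumor replicate 2 lay between the normal arrays.

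Miox, myo-inositol oxygenase, starts the breakdown of inositol and is an enzyme largely of the proximal tubule. It read 4198 and 3672 on the normal arrays, 3.34 on tumor replicate 1 and 9437 on tumor replicate 2 (1416460_at). Slc27a2 activates very long-chain fatty acids and brings fatty acids into the tubule cell. It read 8479 and 10216 on the normal arrays, 65.5 on tumor replicate 1 and 28276 on tumor replicate 2 (1416316_at). Neither gene has a second probe set here, and for both the normal arrays lay between the tumor arrays and far from each.

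Kap, the kidney androgen-regulated protein, is an abundant transcript of the mouse proximal tubule under hormonal control. It read 16792 on normal replicate 1, 41745 on normal replicate 2, 101 on tumor replicate 1 and 52269 on tumor replicate 2 (1415968_a_at). Kap was the gene on which the normal arrays differed most among the 9, by 1.31 on the log2 scale, and the distance of tumor replicate 2 from their mean, 0.98, was smaller than that. The other probe set, 1415969_s_at, gave 19749, 42644, 40.9 and 60550, with normal arrays 1.11 apart and tumor replicate 2 at 1.06. The excess of Kap on tumor replicate 2 is thus no larger than the spread between the normal arrays, whereas its low signal on tumor replicate 1, at -7.83, is many times larger.

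Hnf4a encodes the nuclear receptor that drives the proximal tubule program, and it is also expressed in liver and intestine. It read 954 and 1067 on the normal arrays, 52.8 on tumor replicate 1 and 5718 on tumor replicate 2 (1427001_s_at). The probe sets 1427000_at and 1421983_s_at had the same order, with tumor replicate 2 at 7.06 and 5.78 times the normal mean. The dim probe set 1450447_at did not, at 59.7, 101, 64.5 and 118. Markers of the other organs that express Hnf4a did not share one direction on tumor replicate 2. Alb, the serum albumin of hepatocytes, read 59.4 there beside 1756 and 5082 on the normal arrays, whereas Ttr (transthyretin), Apob (apolipoprotein B) and Fga (a fibrinogen chain) lay above both normal arrays, at 12990, 533 and 411. The intestinal factors Cdx1 and Cdx2 read 4 and 3.87, with no more than 15.7 on any array. Of the whole hepatocyte list 3 of 11 tested genes lay above both normal arrays on tumor replicate 2 and 8 below, beside 45.0% and 40.5% of all genes tested, the summed signal of its 12 measured genes being 9557 and 17658 on the normal arrays, 521 on tumor replicate 1 and 14874 on tumor replicate 2. Most of the last sum was Ttr. Of the enterocyte list, 4 of 11 measured genes were bright enough to be tested and 3 of these lay above both normal arrays, with summed signals of 1413, 1744, 469 and 4109. Its brightest genes, Fabp1 and Vil1, are also expressed in the proximal tubule and read 2306 and 1418 on tumor replicate 2. The part of liver or gut cells in the Hnf4a signal was not tested.

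Havcr1 read 2.25 and 8.23 on the normal arrays, 69 on tumor replicate 1 and 3218 on tumor replicate 2 (1434716_at). The second probe set, 1450364_a_at, read 3.45, 3.86, 30.3 and 772. Both probe sets placed both tumor arrays above both normal arrays, and both placed tumor replicate 2 far above tumor replicate 1, by 46.6 and 25.5 times. Normal signals this low have no reliable order, so the excess over them is given on the log2(signal + 16) scale, where tumor replicate 1 lay 2.02 and 1.24 above the normal mean and tumor replicate 2 lay 7.27 and 5.32 above it. Havcr1 passed the limit on low signals only through the tumor arrays.

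**Figure D2:**
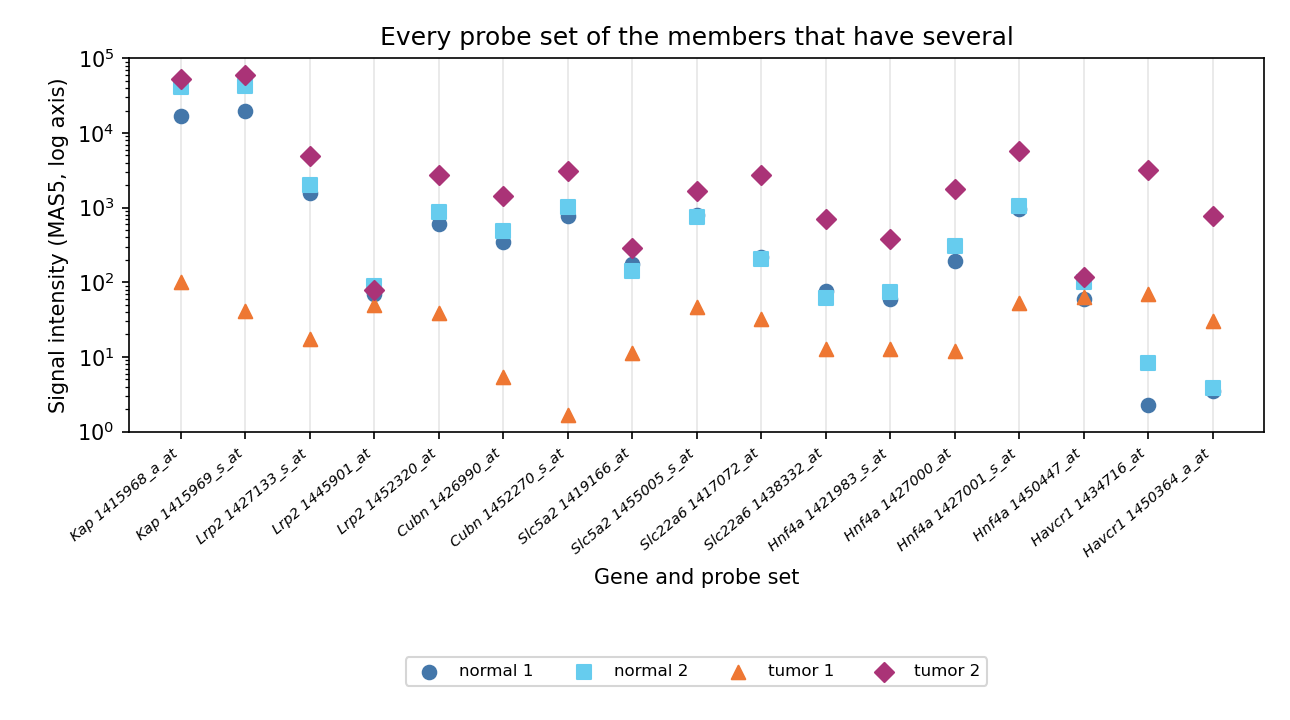
Signal intensity (log axis) of all 17 probe sets of the 7 genes that have more than 1, with 1 point per array. Tumor replicate 2 is the highest array in every probe set but Lrp2 1445901_at, and in this one and Hnf4a 1450447_at, both dim, the arrays lie close together.

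The order of arrays held in nearly every probe set. Tumor replicate 1 lay below both normal arrays in 17 of the 18 probe sets of the 9 proximal tubule genes, and tumor replicate 2 above both in 17 of the 18. Counted by gene over the 10, tumor replicate 1 was below both normal arrays in 9 and tumor replicate 2 above both in 10, where 43.9% and 45.0% of the 13046 genes tested did. Nothing is read from these counts, since the genes were chosen with these values known. No member passed the limma test of the tumor against the normal group, in which 1.43% of all genes tested were called (Benjamini-Hochberg adjusted p under 0.05), 0.943% lower and 0.491% higher. For the 9 proximal tubule genes, tumor arrays on opposite sides of the normal arrays left almost no room for a call. Nothing is read from this outcome either. Quantile normalization and centring of each array on its median left both counts at 9 and 10.

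A wider list of proximal tubule genes, without the members, was split in the same way. It was made from textbook knowledge but with earlier results of these data known, so it gives no independent support. Of its 116 genes 102 had a single-gene probe set and 97 were tested. On tumor replicate 1, 81 of the 97 lay below both normal arrays, or 83.5% beside 43.9% of all genes tested, and on tumor replicate 2, 82 lay above both, or 84.5% beside 45.0%. Both held for 66 genes, 68.0% beside 11.5% of all genes. The median difference from the normal mean was -2.66 for tumor replicate 1 and 1.68 for tumor replicate 2, where all genes tested had 0.01 and 0.04, and the median distance between the normal arrays was 0.19. In bulk tissue fewer cells of a type and less RNA per cell cannot be told apart, so these values do not say which differed.

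In the limma test of both tumor arrays together, 0 of the 97 genes passed in either direction, beside 1.43% of all genes, and 10 had an unadjusted p under 0.05, which is 10.3% of them beside 21.5% of all genes. Their median difference was -0.56, beside 0.03 over all genes. Without tumor replicate 1, 74 genes rose and 8 fell in the same test, with a median of 1.68, where 17.4% and 15.5% of all genes did. Without tumor replicate 2, 77 fell and 7 rose, with a median of -2.66, where 21.1% and 21.1% of all genes did. With one tumor array left, that array is assumed to vary like the normal ones, so these calls describe a single tumor sample each. Both sets of calls share the normal arrays.

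**Figure D3:**
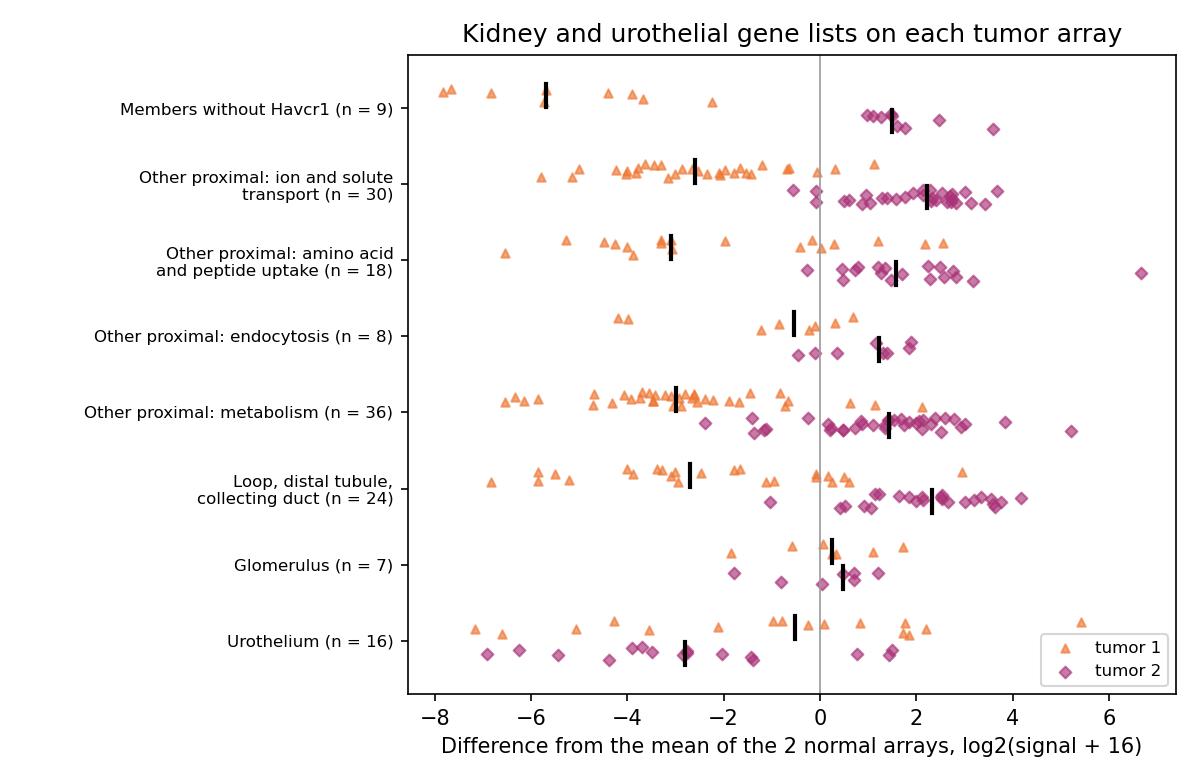
Difference of each tumor array from the mean of the 2 normal arrays on the log2(signal + 16) scale, for 8 gene lists. Each point is a gene, triangles are tumor replicate 1, diamonds are tumor replicate 2 and black bars are medians. The tubule lists lie mostly left of 0 on tumor replicate 1 and right of it on tumor replicate 2, and both tumor arrays are measured against the same normal arrays.

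By role, the transporters of sugar, phosphate and organic ions were most often on opposite sides of the normal arrays, in 24 of 30, beside 11.5% of all genes. Of the 30, 27 lay below both normal arrays on tumor replicate 1 and 27 above both on tumor replicate 2, beside 43.9% and 45.0% of all genes. The medians were -2.60 and 2.21. Slc22a8 (OAT3), the partner of Slc22a6 in organic anion uptake, read 341 and 290.4 on the normal arrays, 17.7 on tumor replicate 1 and 1451 on tumor replicate 2. Slc5a1 (SGLT1), which takes up the glucose that Slc5a2 leaves, read 169, 192, 56.9 and 1703. Slc34a3, a second phosphate transporter, had no such excess on tumor replicate 2, at 277, 251, 28.2 and 249.

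Of 18 genes of amino acid and peptide uptake, 12 lay below both normal arrays on tumor replicate 1 and 17 above both on tumor replicate 2. Of all genes tested 43.9% and 45.0% did. Cltrn (collectrin), which carries amino acid transporters to the brush border, read 4965 and 7110 on the normal arrays, 47.5 on tumor replicate 1 and 19485 on tumor replicate 2. Among the 8 genes of an endocytosis list, which includes partners of megalin and cubilin, the counts were 5 and 6, with medians of -0.54 and 1.24. Only 3 of the 8 were on opposite sides, and so few genes are hard to set apart from the shares of all genes. Amn (amnionless), the anchor of cubilin, had the order of Cubn at 551, 611, 21.5 and 2215. Lrpap1, the chaperone of megalin that other cell types also make, read 10918, 11655, 4836 and 10501, and Dab2, an endocytic adaptor that macrophages share, read 1561, 1591, 1956 and 5756.

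Of 36 metabolic genes, 33 lay below both normal arrays on tumor replicate 1 and 29 above both on tumor replicate 2, beside 43.9% and 45.0% of all genes. Acsm2, a mitochondrial acyl-CoA synthetase of the kidney, read 3432 and 3193 on the normal arrays, 25.4 on tumor replicate 1 and 26984 on tumor replicate 2. Lower on both tumor arrays than on either normal array were 6 of the 36 metabolic genes, beside 27.7% of all genes. Among them, Hpd read 650, 868, 53.8 and 272, and Acsm3 read 3303, 2541, 129 and 1283. Others are enzymes that fat cells also express. Cyp2e1, a cytochrome P450, read 44324, 41921, 3992 and 8223, a difference of -2.91 with SE 0.41 (adjusted p = 0.0690 by limma), Pck1, which makes phosphoenolpyruvate, read 22345, 19334, 1556 and 9496 (-2.43, adjusted p = 0.246), and Acadm, which oxidizes medium-chain fatty acids, read 36695, 35441, 3235 and 13987 (-2.42, adjusted p = 0.192). Fat cell genes had the same direction: 7 of the 7 tested were lower on each tumor array than on either normal array, beside 27.7% of all genes, and their summed signal was 389936 and 407801 on the normal arrays, 78362 on tumor replicate 1 and 6581 on tumor replicate 2. The brightest were Car3, at 113446, 115408, 41019 and 456, and Fabp4, at 105906, 124150, 25536 and 6072. The part of fat in the signals of Cyp2e1, Pck1 and Acadm was not tested.

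The other genes of the wider list with the smallest p-values did not split the tumor arrays. The choice by p-value largely fixed this, since a small p-value needs tumor arrays that lie close together. Cyp7b1, a steroid and oxysterol hydroxylase, had a difference of 2.53 (SE 0.39, limma adjusted p = 0.0793) and Slc15a2, a peptide transporter, one of 1.23 (SE 0.19, adjusted p = 0.0766). Pdzk1ip1, a small membrane protein also induced in carcinomas, had 1.53, Clcn5, an endosomal chloride exchanger, 1.04, Gatm, which starts creatine synthesis, 0.68 and Abcc4, an export pump, -0.62, with adjusted p-values from 0.130 to 0.175. Each of these lay on the same side of both normal arrays on both tumor arrays. Aqp1, the water channel of the proximal tubule and of blood vessels, read 8921 and 7066 on the normal arrays, 5105 on tumor replicate 1 and 11138 on tumor replicate 2. Cat, the peroxisomal catalase of many tissues, read 15232, 16051, 3322 and 13210.

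Of the transcription factor part of the list, which also holds the cell cycle inhibitor Cdkn1c, 5 genes were tested. Of these, 2 lay below both normal arrays on tumor replicate 1 and above both on tumor replicate 2. That count is too small to set apart from the 11.5% of all genes. Maf, a factor shared with macrophages, read 2290 and 2425 on the normal arrays, 2720 on tumor replicate 1 and 7878 on tumor replicate 2. Ppara, which drives fatty acid oxidation in tubule and fat, read 1539, 1799, 104 and 949.

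Genes of the later nephron segments had the same split. Of 24 genes of the loop of Henle, distal tubule and collecting duct, 18 lay below both normal arrays on tumor replicate 1 and 23 above both on tumor replicate 2. Of all genes 43.9% and 45.0% did, and the medians of the list were -2.70 and 2.33. Umod (uromodulin), made by the thick ascending limb, read 4997 and 9982 on the normal arrays, 1268 on tumor replicate 1 and 57258 on tumor replicate 2, and Klk1 (kallikrein), of the connecting tubule, read 10979, 14415, 202 and 26393. Of 7 glomerular genes 0 were low on tumor replicate 1 and high on tumor replicate 2, a count too small to set apart from the 11.5% of all genes. Nphs1 (nephrin), the defining gene of podocytes, read 35.9, 129, 93.7 and 73 on normal replicates 1 and 2 and tumor replicates 1 and 2. The brightest of the list were Podxl, at 1387, 1226, 1559 and 1830, and Synpo, at 607, 447, 1754 and 1215.

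Some markers of the labelled tissue separated the tumor arrays as well, whereas the uroplakins were lower on both tumor arrays than on either normal array. Upk1b and Upk3a, uroplakins of the urothelial surface, read 11549 and 5987 on normal replicate 1 and 19745 and 11462 on normal replicate 2, and 434 and 69.8 on tumor replicate 1 against 183 and 52.3 on tumor replicate 2. The basal urothelial genes Krt5 and Trp63 read 15780 and 10167 on tumor replicate 1, above both normal arrays, but 628 and 440.3 on tumor replicate 2, below both. Krt14, also a basal keratin, lay above both normal arrays on each tumor array, at 367, 383, 16715 and 1088. Of 16 urothelial genes 13 lay below both normal arrays on tumor replicate 2 and 9 on tumor replicate 1, where 40.5% and 43.9% of all genes did, so the count on tumor replicate 1 was near the background. These 9 were below both normal arrays on each tumor array, beside 27.7% of all genes. The summed signal of the list was 60167 and 92344 on the normal arrays, 94695 on tumor replicate 1 and 22275 on tumor replicate 2. The sample with the highest tubule signals thus had the lowest summed urothelial signal. The general epithelial gene Epcam read 4002, 3371, 17023 and 9994, and Krt7 read 14089, 23467, 19322 and 6708, so on tumor replicate 2 the former lay above and the latter below both normal arrays.

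Tumor replicate 2 also differed from the other arrays in sex chromosome transcripts. Xist, which females transcribe from the inactive X, read 24998 and 25925 on the normal arrays, 20566 on tumor replicate 1 and 41.9 on tumor replicate 2. The Y-linked genes Eif2s3y and Kdm5d read 1708 and 514 on tumor replicate 2 and at most 23.2 and 8.47 on the other arrays, and Uty read 121 there and at most 65.8 elsewhere. Several kidney genes that male mice express more strongly had the same pattern: Slc7a13, a transporter of acidic amino acids, read 4.53 and 60.7 on the normal arrays, 13.8 on tumor replicate 1 and 4027 on tumor replicate 2, and Slco1a1, an organic anion transporter, read 5.7, 7.47, 6.74 and 849.7. Cyp2j13 and Slc22a30 read 1483 and 1270 on tumor replicate 2 and at most 52.4 and 174 on the other arrays. The female-biased kidney genes Cyp4a14 and Slc7a12 were also above both normal arrays on tumor replicate 2, at 760.4 beside 510.2 and 571, and at 2676 beside 821 and 2333. Abcc3, likewise female-biased, read 2964, 3891, 903 and 804. Other genes that androgens raise in the kidney were higher than normal on both tumor arrays: Cyp4a12a read 22.2, 42.8, 365 and 706, Odc1 3129, 2540, 12515 and 7897, and Gusb 1009, 923, 3632 and 1878. Slc7a13, Slco1a1, Slc22a30, Cyp7b1 and Cyp4a14 are also on the wider proximal tubule list. Kap and Slc22a6 are genes whose kidney level depends on sex hormones. With 1 array of this kind, sex and sample cannot be told apart on tumor replicate 2 for these or any other genes.

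**Figure D4:**
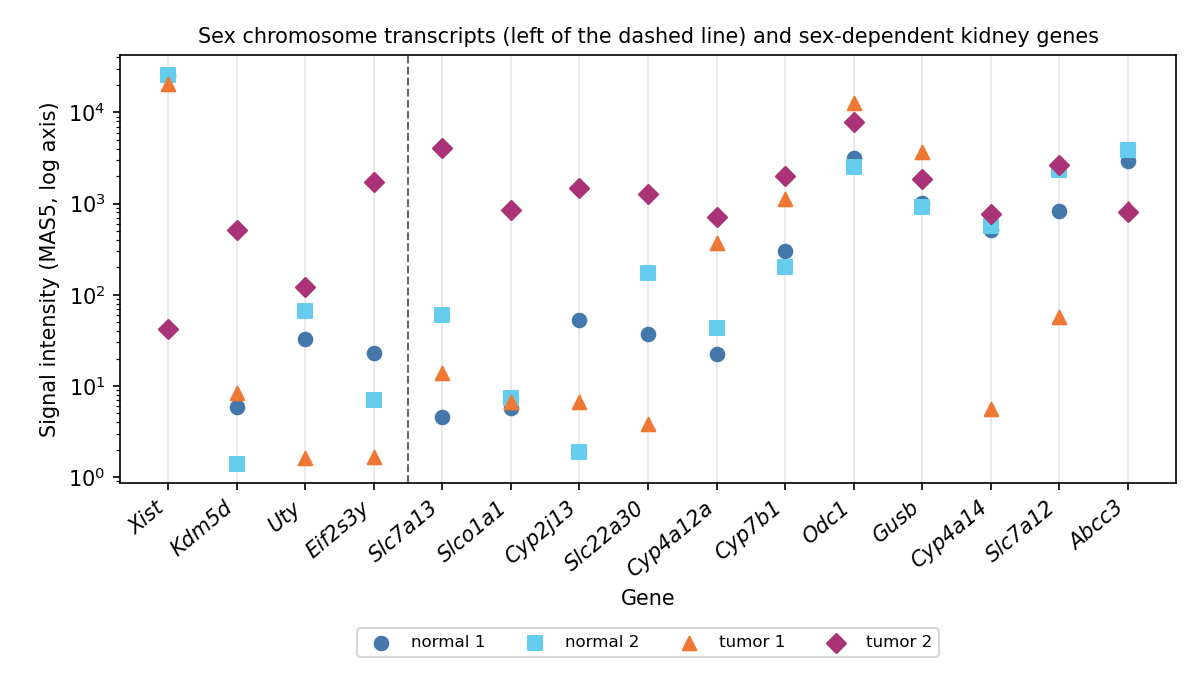
Signal intensity (log axis) of 4 sex chromosome transcripts, left of the dashed line, and 11 kidney genes that differ between male and female mice, with 1 point per array. Tumor replicate 2 is low for Xist and high for Eif2s3y and Kdm5d, and it is the highest array for Slc7a13, Slco1a1, Cyp2j13 and Slc22a30.

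Havcr1 was set beside 24 measured genes of a tubule injury and repair list, of which 21 were tested. On tumor replicate 2, 14 of these lay above both normal arrays and on tumor replicate 1, 16 did, beside 45.0% and 44.5% of all genes tested. In the limma test Vcam1, an adhesion molecule of endothelium and of tubule cells that fail to recover, rose by 2.29 (log2; SE 0.17, 2 arrays per group, adjusted p = 0.0402), and Krt20, a keratin that umbrella cells of the urothelium also make, fell by 4.93 (SE 0.42, adjusted p = 0.0420). These 2 of the 21 genes compare with 1.43% of all genes. Leaving out either normal array ended both calls, as it ended every call of the whole table (0 genes, with 884 and 889 at an unadjusted p under 0.05 in limma). The median difference of the list was 1.46, beside 0.03 over all genes.

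The genes of the list differed in which tumor array they favoured. Lcn2 (lipocalin 2), made by injured tubule and by neutrophils, read 90.8 and 80.6 on the normal arrays, 917 on tumor replicate 1 and 18261 on tumor replicate 2, the order of Havcr1. Dcdc2a read 55.1, 57.3, 62.3 and 2231, and Timd2, a relative of Havcr1 in the TIM family, read 15.4, 68, 74.5 and 982, so both were high on tumor replicate 2 alone. Timp1, a metalloproteinase inhibitor, had the opposite preference, at 124, 104, 9583 and 1709. Sox4, a transcription factor of repairing and malignant epithelium, had a difference of 1.46 (adjusted p = 0.0657), Cd24a, a surface glycoprotein, 1.71 (adjusted p = 0.0770) and Myc 1.40 (adjusted p = 0.0843), with similar signals on both tumor arrays. Clu (clusterin), the gene of this list with the highest signal, read 8422 and 11686 on the normal arrays, 17003 on tumor replicate 1 and 46358 on tumor replicate 2.

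**Figure D5:**
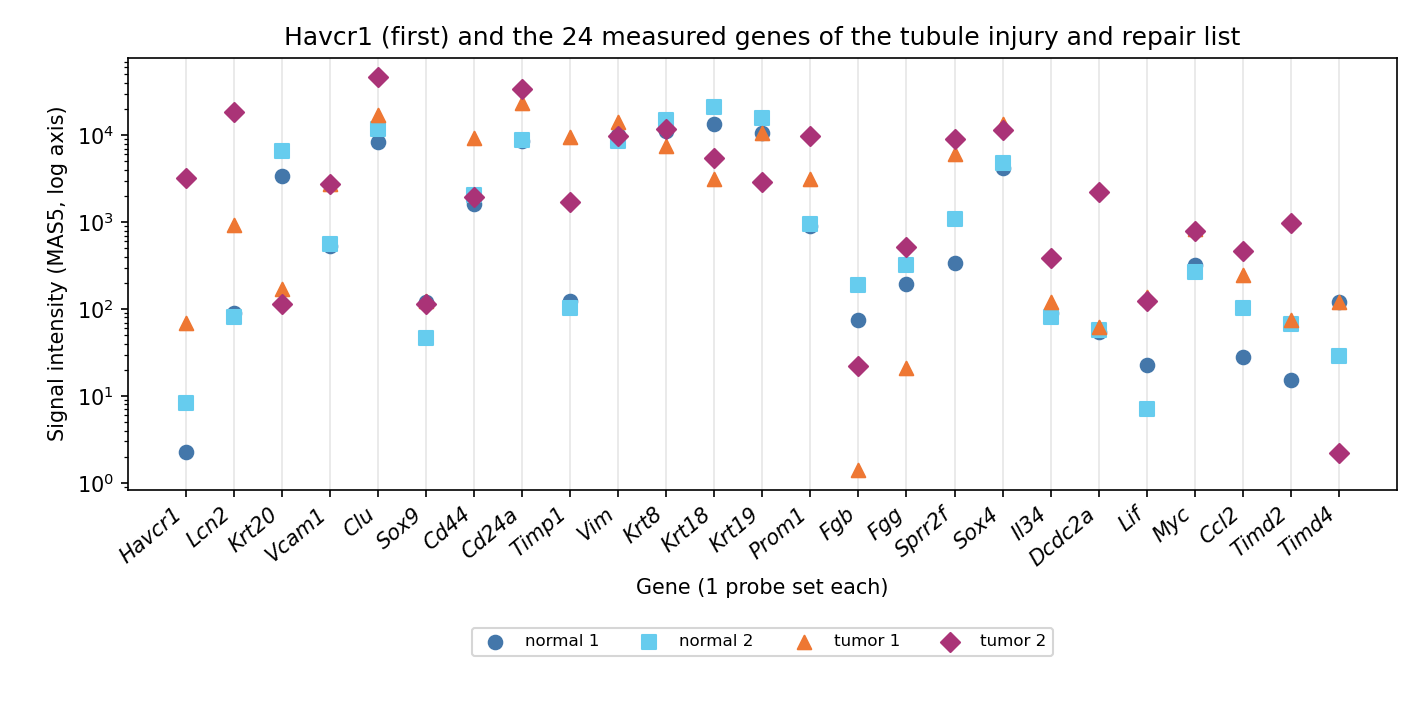
Signal intensity (log axis) of Havcr1, at the left, and the 24 measured genes of the tubule injury and repair list, with 1 point per array. Havcr1, Lcn2, Dcdc2a and Timd2 are highest on tumor replicate 2, Timp1 and Cd44 on tumor replicate 1, and Vcam1 and Myc are similar on both tumor arrays.

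Lymphocytes can express Havcr1, where it is called Tim-1. The T and NK cell list had summed signals of 2893 and 3256 on the normal arrays, 20444 on tumor replicate 1 and 1663 on tumor replicate 2. On tumor replicate 2, 3 of its 7 tested genes lay above both normal arrays, or 42.9%, near the 45.0% of all genes tested. Its cytokine gene Il4 read 243 on tumor replicate 1 and 19.5 on tumor replicate 2. The B and plasma cell list had sums of 1459 and 1355, 57167 and 40624, with 4 of 4 tested genes higher on each tumor array than on either normal array, beside 29.4% of all genes, and the B cell genes Ms4a1 and Cd79b read 2504 and 1415 on tumor replicate 1 but 262 and 279 on tumor replicate 2. The brightest T and NK genes, Gzma and Gata3, read 15262 and 2002 on tumor replicate 1 and 69.4 and 897 on tumor replicate 2. Gata3 is also on the urothelium list and read 2184 and 2573 on the normal arrays. It made up most of the T and NK sums there and on tumor replicate 2. Gzma made up most of that on tumor replicate 1, so these sums do not measure T and NK cells alone. The plasma cell genes Jchain and Mzb1 read 47124 and 6029 on tumor replicate 1, then 37701 and 2320 on tumor replicate 2. The summed signals of both lists were thus higher on the tumor array with the lower Havcr1 signal. Of 8 macrophage genes all 8 were higher on each tumor array than on either normal array, beside 29.4% of all genes, with sums of 10185, 8702, 44917 and 36895. Csf1r and C1qa were the brightest, at 17035 and 8624 on tumor replicate 1 and 15523 and 5525 on tumor replicate 2. Of 8 smooth muscle genes 7 were lower on each tumor array than on either normal array, beside 27.7% of all genes, with sums of 73754, 61306, 20590 and 31057. The brightest were Acta2, at 35083, 27665, 9957 and 18209, and Mylk, at 16698, 15435, 3520 and 3956. The part of these cells in the Havcr1 signal was not tested.

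Among genes outside every list, those with the profile most like that of Kap over the 4 arrays were Ugt3a2, Hgd, Spink1, Rdh16f2 and Acaa1b, at distances of 1.04 to 1.96 on the log2 scale (Euclidean distance of centred values). Ugt3a2, a glycosyltransferase, read 2521 and 3250 on the normal arrays, 7.01 on tumor replicate 1 and 9319 on tumor replicate 2. The genes most like Havcr1 were Mcoln3, Mmp7, Aqp6, Ugt2b37 and Serpina10, at distances of 2.00 to 2.68. Mmp7, a metalloproteinase of epithelia, read 18 and 6.03 on the normal arrays, 530.3 on tumor replicate 1 and 2395 on tumor replicate 2, so it shared with Havcr1 the rank of every array but normal replicates 1 and 2. Mcoln3 and Serpina10 also had tumor replicate 1 above both normal arrays. Aqp6, at 51.3, 67, 23.7 and 3788, and Ugt2b37, at 2.11, 28.8, 0.953 and 4112, had it below both. With 4 arrays such likeness describes these samples only.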

How the data were processed

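Total RNA (6 ug) of 2 normal ureter and 2 ureter tumor samples was hybridised to 1-colour arrays, and the authors deposited linear signal intensity values for 45101 probe sets, which per the submitters' processing notes come from MAS5. The deposited values share a trimmed mean of 500 on every array, so a large change in some genes moves all others. Detection calls were not used here. Probe sets were named through the platform annotation, with 34741 of 34945 single-gene symbols updated through a newer table, and 64 controls were left out. Each gene was read from the probe set with the highest mean of log2(signal + 16), a scale that understates changes of dim genes. The 13046 genes at or above the 40th percentile (a signal of 54.6) were tested in R 4.3.3 by limma 3.58.1 (two-sided, prior variance following intensity), with Benjamini-Hochberg adjustment over all of them. There were 2 residual degrees of freedom, and an exact permutation test of 2 against 2 samples cannot go below p = 0.333. Replicates are biological by their titles, but no animal is named, so p-values measure only the spread between these samples. The number of arrays limits the precision.

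The members, gene lists and alternatives were chosen with earlier results of these data known. Named genes are all members. From the wider proximal list the 8 with the smallest p and the 6 with the highest mean are named, from the injury list 5 and 1, all sex chromosome transcripts, and the 2 highest of other lists. Further genes (such as Slc22a8, Slc5a1, Slc34a3, Amn, Dab2, Cltrn, Aqp1, Maf, Ppara, Krt5, Krt14, Trp63, Apob, Fga, Upk1b, Upk3a, Nphs1, Cdx1, Cdx2, Il4, Ms4a1, Cd79b, the sex-dependent kidney genes, Lcn2, Timp1, Dcdc2a and Timd2) were chosen for naming with their values in view. The test was first run on simulated data. Alternatives were pseudocounts of 1 and 64, quantile normalization, median centring, no filter and the 60th percentile, averaging the probe sets of each gene, testing each probe set separately, a constant or robust variance prior, the replicate number as a block, and leaving out each array. Figures were drawn with matplotlib 3.10.9.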

Additional observations from a re-analysis of the deposited data

How the results depend on the processing

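The count of all genes called lower and higher, 123 and 64, was 25 and 10 with each array centred on its median (which moved the median of all genes from 0.0269 to 0.223), 80 and 31 when probe sets of each gene were averaged, 321 and 152 with every probe set, and 1 and 1 without the intensity trend. With the replicate number as a block it was 0 and 0 (2253 genes at an unadjusted p under 0.05 in limma). The labels do not say whether the numbers pair the samples. The replicate differences of the 2 groups were nearly uncorrelated across genes (r = 0.0391), which cannot settle it. Leaving out an array gave 0 to 2753 lower and 0 to 2749 higher. Among the other proximal tubule genes, 0 to 77 were called lower and 0 to 74 higher when an array was left out, and 1 was called higher with every probe set. Their median ran from -2.66 to 1.68, and the median over the 10 members, -1.72 with all arrays, from -5.05 to 1.55. These signs turn with the tumor array that is kept, as the values on each array show. Of 149 values of single members under the alternatives, 149 moved by less than the spread between replicates, which is wide because the tumor arrays lie far apart. That count was largely fixed in advance and shows no stability. Leaving out an array cannot move a value by more than this spread, and a block or another variance prior leaves the difference as it was. Signs still turned within it, as for Kap, from -3.42 with all arrays to 0.98 without tumor replicate 1. Signals near the bottom of the scale, such as Havcr1 on the normal arrays, have no reliable size.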
